A study of Mus musculus with 12 samples.

Results

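Genes that were near silent in WT ventricles and detected in Vps13c-cKO ventricles were examined mouse by mouse. A gene was taken when its read counts summed to 10 or less over 6 WT mice and to 30 or more over 6 Vps13c-cKO mice, and 111 of 21959 genes in the count table met both limits. The members were thus chosen by the summed raw counts of the 2 groups, the same counts that are described here, so the difference between the groups in these genes carries no test. The Vps13c-cKO mice are a cardiac-specific knockout of Vps13c, a gene for a bridge-like protein that moves lipid between organelles, and the WT mice are wild type. All 12 mice were male, 7 weeks old and fed chow, and each library holds poly-A RNA from the ventricles of 1 mouse. The sources used here do not name the driver of the knockout or the deleted exons, nor say whether WT mice carried a driver. Libraries held 12484523 to 15562942 counts. Vps13c itself had 212 to 287 counts in Vps13c-cKO mice, against 756 to 984 counts in WT mice. Its log2 fold change was -1.77 ± 0.06 (SE; adjusted p = 4.47e-14 by edgeR's quasi-likelihood test). Cardiomyocyte markers stood high in every library, with 321156 to 387476 counts of Myh6, the main adult mouse heart myosin, in Vps13c-cKO mice and 328362 to 410021 counts in WT mice.

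The counts go against a reading of the 111 genes as genes detected in knockout ventricles generally. In 74 of them, over 50% of the Vps13c-cKO counts came from 1 animal, and in all 74 this was Vps13c-cKO mouse 1. These 74 are called single-mouse members here. The other 37, called spread members, had no mouse with over 50% of their counts. Mouse 1 held 11246 of the 13181 Vps13c-cKO counts of all members (85.32%), while mice 2 to 6 together held 1935 counts and the 6 WT mice 311. Without mouse 1, and with the limits unchanged, 29 of the 111 genes met the rule, so the number of members rests on that library. In WT, mouse 4 also stood apart, in genes of the atrium that are no members: it had 433 counts of Myl4, 405 of Myl7, 114 of Sln and 50 of Mybphl, against at most 19, 2, 0 and 3 in any other WT mouse. In bulk tissue, fewer cells of a type and less RNA per cell cannot be told apart.

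**Figure D1:**
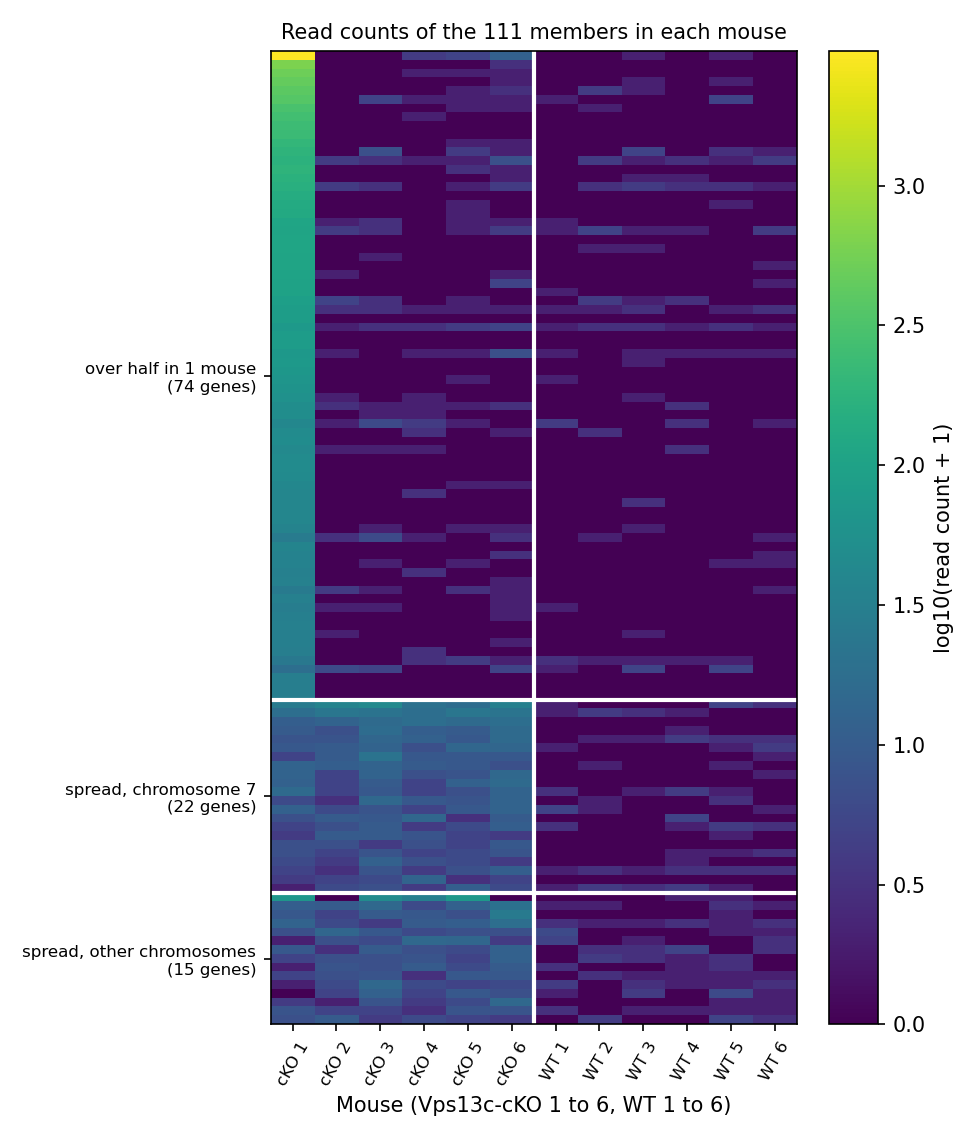
Read counts of the 111 members, 1 line per gene, in Vps13c-cKO mice 1 to 6 and WT mice 1 to 6, coloured by log10 of the count plus 1. The 74 single-mouse members are bright in Vps13c-cKO mouse 1 and dark in most other cells, whereas the 37 spread members are of like brightness in most Vps13c-cKO mice.

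Genes such as these are usually expressed in a restricted set of cell types and kept silent elsewhere. Hepatocytes make most plasma proteins, from albumin and the apolipoproteins to clotting factors and complement, and they carry the enzymes of urea synthesis, amino acid breakdown and drug metabolism. In mice they also secrete the major urinary proteins, which carry pheromones into urine. Cardiomyocytes make few of these transcripts. Sperm structural proteins, olfactory receptors and brush border transporters are likewise textbook markers of organs other than the heart.

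Promoter sequences are shown for 5 members around which the description turns. Alb has the highest count of all members, Hpx is the single-mouse member of chromosome 7 with the highest count, and Odf3, Fam196a and BC048679 are the 3 members that passed the filter on low counts. Each runs 5′ to 3′ on the strand of its gene from 250 bases before to 50 bases after the transcription start, from RefSeq on the build GRCm38.p6, and capitals mark a match on either strand to 1 of 6 motifs named below. Alb lies at chr5:90460620-90460919 on the plus strand, Hpx at chr7:105600067-105600366 on the minus strand, Odf3 at chr7:140847666-140847965 on the plus strand, Fam196a (Insyn2a in RefSeq) at chr7:134938381-134938680 on the minus strand and BC048679 at chr7:81498281-81498580 on the minus strand.
Alb: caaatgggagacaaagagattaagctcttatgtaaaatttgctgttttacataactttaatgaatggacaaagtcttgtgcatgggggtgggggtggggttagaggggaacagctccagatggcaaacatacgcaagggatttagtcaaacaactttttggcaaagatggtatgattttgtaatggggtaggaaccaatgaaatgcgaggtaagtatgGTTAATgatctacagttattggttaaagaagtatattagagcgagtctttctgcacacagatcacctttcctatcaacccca
Hpx: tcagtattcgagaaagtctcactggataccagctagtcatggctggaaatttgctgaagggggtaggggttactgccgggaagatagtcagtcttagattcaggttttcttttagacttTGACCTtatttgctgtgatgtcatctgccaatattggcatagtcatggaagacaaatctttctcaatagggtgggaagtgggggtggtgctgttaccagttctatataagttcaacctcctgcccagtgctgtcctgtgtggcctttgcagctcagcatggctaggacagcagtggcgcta
Odf3: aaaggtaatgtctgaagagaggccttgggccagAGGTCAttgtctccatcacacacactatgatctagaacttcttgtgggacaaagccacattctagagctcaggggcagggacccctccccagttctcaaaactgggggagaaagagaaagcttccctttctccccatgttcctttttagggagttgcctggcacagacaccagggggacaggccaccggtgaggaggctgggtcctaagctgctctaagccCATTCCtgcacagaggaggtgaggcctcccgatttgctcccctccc
Fam196a: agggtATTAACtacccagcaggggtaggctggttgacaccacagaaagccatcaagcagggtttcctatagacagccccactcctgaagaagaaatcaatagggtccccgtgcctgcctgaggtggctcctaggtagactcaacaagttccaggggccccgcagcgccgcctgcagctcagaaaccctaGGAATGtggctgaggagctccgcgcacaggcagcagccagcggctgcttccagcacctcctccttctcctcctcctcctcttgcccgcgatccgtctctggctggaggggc
BC048679: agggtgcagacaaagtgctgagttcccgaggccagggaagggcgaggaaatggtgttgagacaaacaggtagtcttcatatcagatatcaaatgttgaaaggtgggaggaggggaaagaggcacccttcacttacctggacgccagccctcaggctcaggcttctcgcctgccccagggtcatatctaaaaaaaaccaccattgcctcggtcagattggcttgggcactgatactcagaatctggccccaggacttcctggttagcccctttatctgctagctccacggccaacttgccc

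The motifs searched were the TATA box TATAAA, the E-boxes CAGCTG and also CACGTG, the nuclear receptor element AGGTCA, the TEAD site CATTCC and finally GTTAAT. Each was searched on both strands, and matches of different motifs may overlap. The last, part of the site bound by the hepatocyte factor HNF1, was added after the genes had been seen. Of the 111 members, 94 had a promoter in the RefSeq table, 63 of them single-mouse members and 31 spread members. GTTAAT was present in 16 of the 63 single-mouse promoters (25.4%), in 1 of the 31 spread promoters (3.23%) and in 7.2% of all 27025 promoters. The Alb promoter printed above holds it shortly before the start. AGGTCA was present in 33.3% of the single-mouse promoters, 19.4% of the spread promoters and 16.0% of all. CAGCTG had the opposite order, with 3.17% of the single-mouse promoters, 25.8% of the spread promoters and 16.1% of all. TATAAA was found in 25.4%, 9.68% and 14.2% of the same 3 sets, CACGTG in 1.59%, 9.68% and 7.24%, and CATTCC in 22.2%, 12.9% and 14.6%. The BC048679 window holds none of the 6 motifs. These are matches of letters in a window and carry no test.

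The single-mouse members were liver genes by their textbook site of expression. This holds for 72 of the 74. The exceptions are Pigr, which encodes the receptor that moves antibodies across mucosal epithelia, and Nat8f2, for which no site is given. No spread member was given the liver as its site, but for 9 of the 37 no site is given. These 9 include Urah, which acts after Uox in the urate pathway, while Uox was given the liver. Sites were assigned by hand after the members were known, so the split by site depends in part on that assignment. The 74 genes had 10923 counts in Vps13c-cKO mouse 1 and 220 counts in mice 2 to 6, against 128 counts in the 6 WT mice. In mouse 1 they made up 0.0875% of the library (Wilson 95% interval 0.0859 to 0.0891%, which covers counting error only). Of the 74, 25 had 0 counts in all of Vps13c-cKO mice 2 to 6, which allows a level of up to 0.0442 CPM (read counts normalised to library size) per gene, or 3 counts over the 5 libraries together, and 37 had 0 counts in all WT mice, which allows up to 0.0354 CPM.

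Plasma carrier proteins and protease inhibitors, 13 genes, gave the largest share of these counts, with 4963 in Vps13c-cKO mouse 1 and 66 in mice 2 to 6, against 41 in WT. Alb (ENSMUSG00000029368, chromosome 5) encodes serum albumin. It had 3016, 0, 0, 3, 4 and 11 counts in Vps13c-cKO mice 1 to 6, against 0, 0, 1, 0, 1 and 0 counts in WT mice 1 to 6. Apart from mouse 1, its knockout counts overlapped those of WT. Gc, the vitamin D carrier, had 269 counts in mouse 1 and 1 in all other Vps13c-cKO mice together, and Serpina3k, a serine protease inhibitor, had 400 and 3. The 4 α1-antitrypsin genes Serpina1e, Serpina1b, Serpina1d and Serpina1a had 362, 181, 102 and 101 counts in mouse 1. Because these copies are nearly identical in sequence, reads may have been divided among them or moved between them, and their single values are uncertain. Hpx, the heme scavenger, had 105, 3, 2, 0, 1 and 3 counts in Vps13c-cKO mice 1 to 6, against 1, 4, 1, 1, 0 and 3 counts in WT mice 1 to 6.

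The major urinary proteins followed the same pattern. Their 6 members (Mup3, Mup7, Mup14, Mup20, Mup11 and Mup17, all on chromosome 4) had 1554 counts in Vps13c-cKO mouse 1 and 8 in mice 2 to 6, against 1 in WT. Mup3 had 618, 0, 0, 0, 0 and 2 counts in Vps13c-cKO mice 1 to 6, against 0 counts in each WT mouse, and Mup7 had 509, 0, 0, 1, 1 and 1, against 0 in each WT mouse. Counts of single Mup genes share the uncertainty of close copies, while the family total was high in mouse 1 only.

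Clotting and fibrinolysis genes, 10 members, had 1038 counts in Vps13c-cKO mouse 1 and 26 in mice 2 to 6, against 13 in WT. The fibrinogen chains Fga, Fgb and Fgg, whose products are assembled into the clot protein, had 241, 233 and 141 counts in mouse 1 and 0 in each of the other 11 mice. Kng1 (kininogen, 111 counts) and Plg (plasminogen, 83 counts) were likewise read in mouse 1 and in no other mouse. Exons of Plg overlap those of Slc22a3 on the opposite strand, and Slc22a3 itself was lower in Vps13c-cKO mice (log2 fold change -0.57, edgeR adjusted p = 0.000391). Serpinc1 (antithrombin) and F10 (factor X) were less concentrated: Serpinc1 had 72, 1, 2, 2, 3 and 4 counts in Vps13c-cKO mice 1 to 6, against 1 or 2 counts in each WT mouse, and F10 had 27 of its 37 counts in mouse 1.

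Apolipoproteins and the lipoprotein-bound enzyme Pon1, 7 members in all, had 843 counts in Vps13c-cKO mouse 1 and 26 in mice 2 to 6, against 16 in WT. Apoa1, the main protein of high-density lipoprotein, had 301, 0, 0, 0, 1 and 1 counts in Vps13c-cKO mice 1 to 6, against 0, 1, 0, 0, 0 and 0 counts in WT mice 1 to 6. Apob, which encodes the scaffold of very-low-density lipoprotein, had 166 counts in mouse 1 and 1 in the other Vps13c-cKO mice. The 5 complement members Cfi, C4bp, C9, Hc and C8a had lower counts, 30 to 40 each in mouse 1.

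The enzymes were read in the same animal. The 7 cytochrome P450 members, which oxidise drugs and steroids, had 710 counts in Vps13c-cKO mouse 1 and 5 in mice 2 to 6, against 6 in WT, with Cyp3a11 at 457 counts. The 9 enzymes of amino acid, urea and urate metabolism had 777 counts in mouse 1 and 42 in mice 2 to 6, against 30 in WT. Among these were Cps1, which makes carbamoyl phosphate for the urea cycle (171 counts in mouse 1), Tat, which starts tyrosine breakdown (127), Uox, which oxidises urate (106), and Arg1, the urea cycle arginase (85). Hal, which starts histidine breakdown, lay nearest to the limit between the classes, with 17, 5, 4, 0, 0 and 4 counts in Vps13c-cKO mice 1 to 6, against 1, 0, 4, 0, 4 and 0 counts in WT mice 1 to 6. The 9 conjugation, esterase and steroid enzymes had 464 counts in mouse 1 and 5 in mice 2 to 6, against 2 in WT. Several of these (Ces1c, Ces3a, Ugt2b5, Ugt2b1, Ugt2b36) and of the P450 genes have close copies, so their single values are uncertain. The 6 transporters and lipid-handling genes had 296 counts in mouse 1 and 16 in mice 2 to 6, against 6 in WT. Fabp1, which binds fatty acids in liver and gut, accounted for 107 of the last group's mouse 1 counts.

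Liver genes that the rule did not take showed the same library. On a liver list of 47 genes, 25 were members and 22 were not. Of the 22, 3 had no counts in any mouse, 17 had a Vps13c-cKO sum below 30, 6 had a WT sum above 10, and 11 had over 50% of their Vps13c-cKO counts in mouse 1. Ttr, the thyroid hormone carrier transthyretin, had 212, 1, 0, 7, 2 and 1 counts in Vps13c-cKO mice 1 to 6, against 2, 2, 7, 7, 2 and 5 counts in WT mice 1 to 6. The 22 non-members summed to 79.57 CPM in mouse 1 and to 7.413 to 9.847 CPM in mice 2 to 6, against 2.164 to 3.685 CPM in WT. Most of the excess of mice 2 to 6 over WT is the drug-metabolising enzyme gene Cyp2b10, with 64, 68, 77, 60, 68 and 67 counts in Vps13c-cKO mice 1 to 6, against 4, 2, 1, 4, 2 and 9 counts in WT mice 1 to 6. Without Cyp2b10, the whole list stood at 655.5 CPM in mouse 1 and at 3.083 to 6.286 CPM in mice 2 to 6, against 2.737 to 4.671 CPM in WT. Most defining liver markers were thus at or near 0 in Vps13c-cKO mice 2 to 6 and in WT. An exception is the plasma protein gene Ahsg, with 220 counts in mouse 1 and 14 to 29 in mice 2 to 6, against 19 to 28 in WT. The part of such markers in the values of mouse 1 was not tested.

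Across the whole table, a gene with 30 or more counts in 1 mouse that held over 50% of its counts over all 12 mice was found 81 times for Vps13c-cKO mouse 1. It was found 4 times for WT mouse 4 and 0 times for each of the other 10 mice. Of the 81 genes, 69 were members, and the 12 others included Cyp2e1, Pck1, Ttr, Pzp, Tdo2, Car3, Hp, H2-Q10, Cfhr2, Fbp1 and Slc27a5. Among 9612 genes outside the set with Vps13c-cKO sums in the range of the members, 0.2705% had over 50% of those counts in 1 mouse. Their median sum was 689, against 52 for the members, so they are not matched in level.

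**Figure D2:**
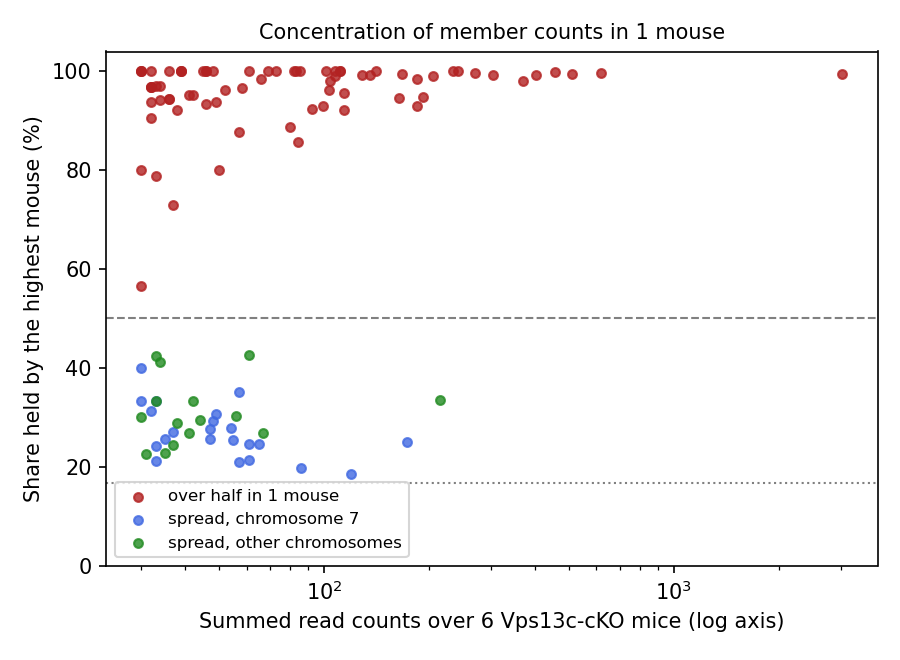
Share of each member's Vps13c-cKO counts held by its highest mouse (%) against its summed Vps13c-cKO count on a log axis; each point is 1 gene, the dashed line is 50% and the dotted line an even share over 6 mice. The 74 single-mouse members lie between 56.67% and 100% and the 37 spread members between 18.49% and 42.62%.

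The 37 spread members were read at low and similar levels in the Vps13c-cKO mice. Of them, 35 had counts in all 6 Vps13c-cKO mice, and the exceptions were Brinp1 with counts in 5 mice and Capn11 with counts in 4. In WT, 4 spread members (BC048679, Omp, Calca and Folr1) had 0 counts in every mouse, and 2 (Tnni1 and Kctd14) had at least 1 count in all 6. Their summed level was 25.67, 18.94, 29.5, 23.62, 26.0 and 27.9 CPM in Vps13c-cKO mice 1 to 6, a mean of 25.27 ± 3.7 CPM (SD, n = 6). In WT mice 1 to 6 it was 2.446, 1.615, 1.46, 2.312, 2.673 and 2.453 CPM, a mean of 2.16 ± 0.498 CPM (SD, n = 6). Mouse 1 lay inside the range of the other 5 knockout mice, and without it the Vps13c-cKO mean was 25.19 ± 4.13 CPM (SD, n = 5). Every Vps13c-cKO count lay above every WT count for 20 of the 37, and for 22 of the 37 without mouse 1. This was so for 0 of the 74 single-mouse members and for 0.978% of all genes with counts, and since the rule used these counts nothing is read from the comparison. Mouse 6 had the highest count for 13 of the 37 genes, mouse 3 for 8, and the other 4 mice for 3 to 5 each. These are raw counts, and mice 6 and 3 had the largest Vps13c-cKO libraries, with 14188716 and 13987115 counts.

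**Figure D3:**
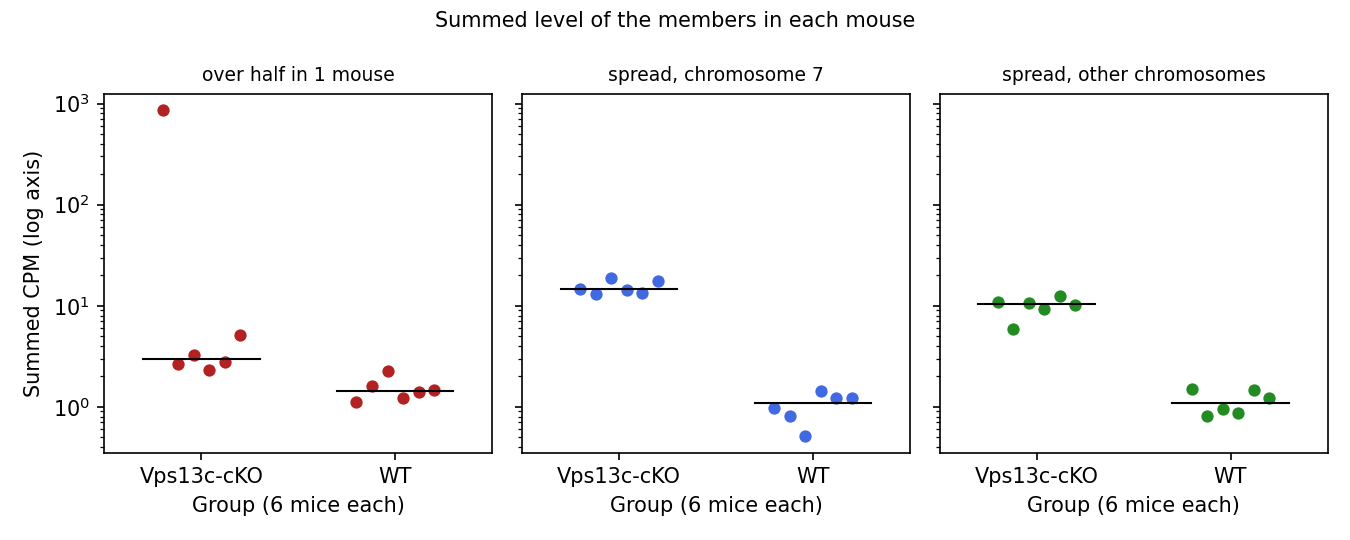
Summed level of the members in each mouse (CPM, read counts normalised to library size, log axis) in 6 Vps13c-cKO and 6 WT mice for the 3 sets of members; points are mice, numbered 1 to 6 from left to right within a group, and lines are medians. For the single-mouse members, Vps13c-cKO mouse 1 stands at 868.3 CPM and mice 2 to 6 at 2.322 to 5.085 CPM, whereas all 6 Vps13c-cKO mice lie together for both spread sets. This contrast follows in part from the split by share.

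Among the spread members, 22 lie on chromosome 7. Their sum was 12.99 to 18.77 CPM in Vps13c-cKO mice, against 0.5109 to 1.445 CPM in WT mice. The 3 with the highest counts were also the only members to pass the filter on low counts. Odf3 (ENSMUSG00000025482), an outer dense fibre protein of the sperm tail, had 27, 35, 43, 19, 16 and 32 counts in Vps13c-cKO mice 1 to 6, against 1, 0, 0, 0, 4 and 2 counts in WT mice 1 to 6. Fam196a (ENSMUSG00000073805), a gene of inhibitory synapses, had 17, 22, 20, 17, 22 and 21 counts in Vps13c-cKO mice 1 to 6, against 1, 3, 2, 1, 0 and 0 counts in WT mice 1 to 6. BC048679 (ENSMUSG00000061877), for which no role is given, had 10, 12, 15, 17, 15 and 17 counts in Vps13c-cKO mice 1 to 6, against 0 in each WT mouse. In these 3 genes no knockout count overlapped a WT count, and Fam196a had the most even spread of all members, with 18.49% of its counts in its highest mouse. All 3 were called by the edgeR quasi-likelihood test at an adjusted p under 0.05, which called 10.7% of 12384 tested genes, 5.65% higher and 5.1% lower. The rule used this contrast, so nothing is read from these calls. Odf3 averaged 2.12 ± 0.675 CPM in Vps13c-cKO mice and 0.0803 ± 0.105 CPM in WT mice, and Fam196a 1.48 ± 0.126 and 0.0824 ± 0.0801 CPM (SD, n = 6 each).

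Genes with a textbook role in neurons or sensory cells were the most frequent kind on chromosome 7, with 8 of the 22. Omp, a marker of mature olfactory neurons, had 11, 4, 9, 4, 11 and 15 counts in Vps13c-cKO mice 1 to 6, against 0 in each WT mouse, and the olfactory receptor Olfr545 had 9, 6, 16, 10, 9 and 15, against 1 count in WT mouse 4 alone. Calca, which encodes calcitonin and the neuropeptide CGRP, had 6, 6, 3, 6, 4 and 8 counts in Vps13c-cKO mice 1 to 6, against 0 in each WT mouse. The kinase Brsk2, the chromatin factor Dpf1, the adaptor subunit Ap3b2 and Tub, all expressed mainly in brain, summed to 49, 47, 47 and 37 counts in Vps13c-cKO mice, against 7, 6, 4 and 8 in WT mice. On a list of 73 neuronal genes only Calca was a member, and the list's summed level was 124.1 to 135.5 CPM in Vps13c-cKO mice and 118.0 to 131.3 CPM in WT mice, so the ranges overlap. Its part in the values of the members was not tested.

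Epithelial genes were the next kind, with 4 of the 22. Slc5a2, the kidney glucose transporter SGLT2, had 5, 2, 14, 8, 7 and 12 counts in Vps13c-cKO mice 1 to 6, against 0, 1, 0, 0, 2 and 0 counts in WT mice 1 to 6. Its lowest knockout count equals its highest WT count. Slc5a11, a transporter of inositol, had 3 to 9 counts per Vps13c-cKO mouse, against 1 count over all WT mice. Cdhr5, a brush border cadherin, had 4 to 14, against 1 over all WT mice, and the folate receptor Folr1 had 2 to 12, against 0 in WT. A kidney list of 28 genes, with Slc5a2 as its only member of the set, summed to 6.677 to 8.54 CPM in Vps13c-cKO mice and 6.787 to 8.968 CPM in WT mice. The other chromosome 7 genes were the BMP-binding Chrdl2 and the hyaluronan-binding Cemip of matrix and skeleton (33 counts each in Vps13c-cKO mice, against 4 and 1 in WT mice) and 7 genes with no site given. Those 7 are BC048679, Urah, Usp17la, BC051019, Ceacam15, Kctd14 and Ifitm10. Urah, an enzyme of the urate pathway that acts after Uox, had 7, 7, 13, 11, 8 and 15 counts in Vps13c-cKO mice 1 to 6, against 0, 1, 1, 3, 2 and 2 counts in WT mice 1 to 6, and was thus read in all 6 knockout mice, unlike Uox.

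The 15 spread members outside chromosome 7 lie on 11 chromosomes. Their sum was 5.945 to 12.52 CPM in Vps13c-cKO mice, against 0.8077 to 1.483 CPM in WT mice. Capn11 (chromosome 17), a calpain protease of the testis, behaved unlike any other member, with 66, 0, 46, 31, 72 and 0 counts in Vps13c-cKO mice 1 to 6, against 0, 0, 0, 1, 1 and 0 counts in WT mice 1 to 6. It was thus high in 4 knockout mice and had no counts in mice 2 and 6, so the groups overlap. The other testis genes were Fam166a, Catsper4, a subunit of the sperm calcium channel, and Rbm46, a germ cell RNA-binding protein. Fam166a had 8, 4, 9, 8, 6 and 26 counts in Vps13c-cKO mice 1 to 6, against 1 count in WT mouse 5 alone, and its exons overlap those of Tubb4b on the opposite strand, a gene with 11086 counts in Vps13c-cKO mice and 9704 in WT mice. Reads of the pair cannot be told apart if strand was not used in counting. A list of 54 testis and germ cell genes held no member, and its summed level was 54.91 to 60.69 CPM in Vps13c-cKO mice and 53.25 to 60.28 CPM in WT mice.

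Immune ligands and receptors made up 4 of the 15. Il25, a cytokine of type 2 immunity, had 10, 9, 14, 5, 11 and 18 counts in Vps13c-cKO mice 1 to 6, against 1, 1, 0, 0, 2 and 1 counts in WT mice 1 to 6, with no overlap. The chemokine receptor Cxcr6 and Tnfsf18, the ligand of GITR, had 30 and 41 counts over Vps13c-cKO mice, against 9 and 10 over WT mice, close to the WT limit. A list of lymphocyte genes, with no member, summed to 50.6 to 54.53 CPM in Vps13c-cKO mice and 43.61 to 52.85 CPM in WT mice, and its part in these values was not tested.

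Slow and developing skeletal muscle gave 2 members, both sarcomere proteins. Tnni1, the slow skeletal troponin I that is also the fetal heart form, had 12, 5, 3, 9, 10 and 17 counts in Vps13c-cKO mice 1 to 6, against 2, 1, 1, 2, 1 and 2 counts in WT mice 1 to 6. Mybpc1, the slow form of myosin-binding protein C, had 1, 7, 6, 9, 5 and 9, against 2, 0, 0, 1, 2 and 0 in WT mice 1 to 6. Tnni1 did not overlap between the groups, and Mybpc1 overlapped through Vps13c-cKO mouse 1. The neuronal members here were Brinp1 and the glycine receptor subunit Glrb, and Aqp6, a kidney aquaporin, was the epithelial one.

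The mirror set was small. Only 3 genes summed to 10 or less over the Vps13c-cKO mice and to 30 or more over the WT mice, against 111 in the other direction. Sln, the atrial calcium pump regulator sarcolipin, had 1 count in Vps13c-cKO mouse 3, against 114 counts in WT mouse 4 and 0 in every other WT mouse. It was in the mirror set through the library with high atrial genes, as most members were in theirs through mouse 1. Hoxa5, a patterning factor, had 1, 1, 6, 1, 0 and 1 counts in Vps13c-cKO mice 1 to 6, against 11, 4, 8, 8, 1 and 4 counts in WT mice 1 to 6. Spata48, a spermatogenesis-associated gene, had 0, 4, 2, 0, 0 and 4 counts in Vps13c-cKO mice, against 3, 4, 8, 13, 1 and 2 counts in WT mice. Both overlap between the groups. Without Vps13c-cKO mouse 1 the rule gave 29 members and 7 mirror genes, and without WT mouse 4 it gave 120 members and 0 mirror genes.

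By chromosome, the 2 classes differed in their make-up. The 74 single-mouse members were scattered over 18 chromosomes, with 4 on chromosome 7 (Hpx, Apoc1, Sult2a8 and Cyp2a5), or 5.405%. Of the 37 spread members, 22 lay on chromosome 7, or 59.46%. Chromosome 7 holds 9.295% of all genes in the table with an annotated chromosome. Of the 9596 such genes outside the set with Vps13c-cKO sums in the members' range, 30 to 3034, it holds 8.462%. Their median sum was 689, against 44 for the spread members, so they are not matched in level. The overall figure of 26 of 111 members (23.42%) is a mix of both classes of members. Without mouse 1, 16 of 29 members (55.17%) were on chromosome 7. No member lay on chromosome 18, on the sex chromosomes or in the mitochondrial genome. Genes that are close together are not independent, and no test was made of these shares.

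**Figure D4:**
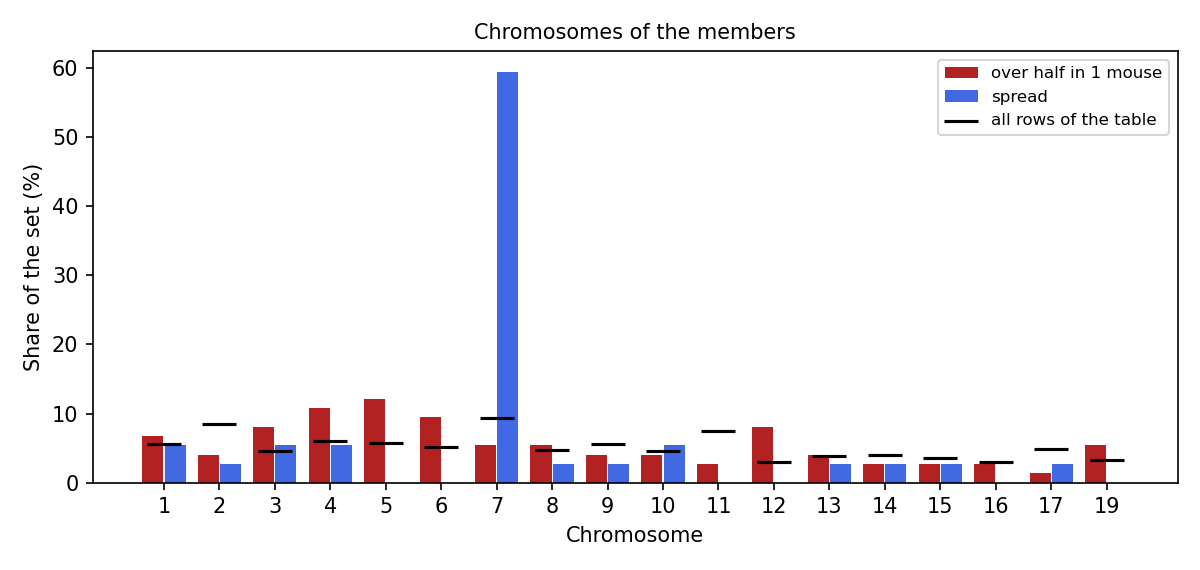
Share of the 74 single-mouse members (left bar) and of the 37 spread members (right bar) on each chromosome that holds a member (%), beside the share of all genes in the table (black mark). The spread members have 59.46% on chromosome 7, where the single-mouse members have 5.405% and all genes 9.295%.

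Along chromosome 7 the spread members were not evenly placed. In annotation order, 2 of the 22 (Ceacam15 and Dpf1) were among the first 1015 of 2031 genes and 20 were among the last 1016. Of the 812 chromosome 7 genes outside the set with Vps13c-cKO sums in the members' range, 387 were in the first part and 425 in the second. Some members were next to each other or nearly so: Ap3b2 and BC048679 are at positions 1114 and 1115 of the order, and Urah and Odf3 at 1916 and 1918. Chromosome 7 as a whole had 177 of 955 tested genes called, or 18.5%.

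**Figure D5:**
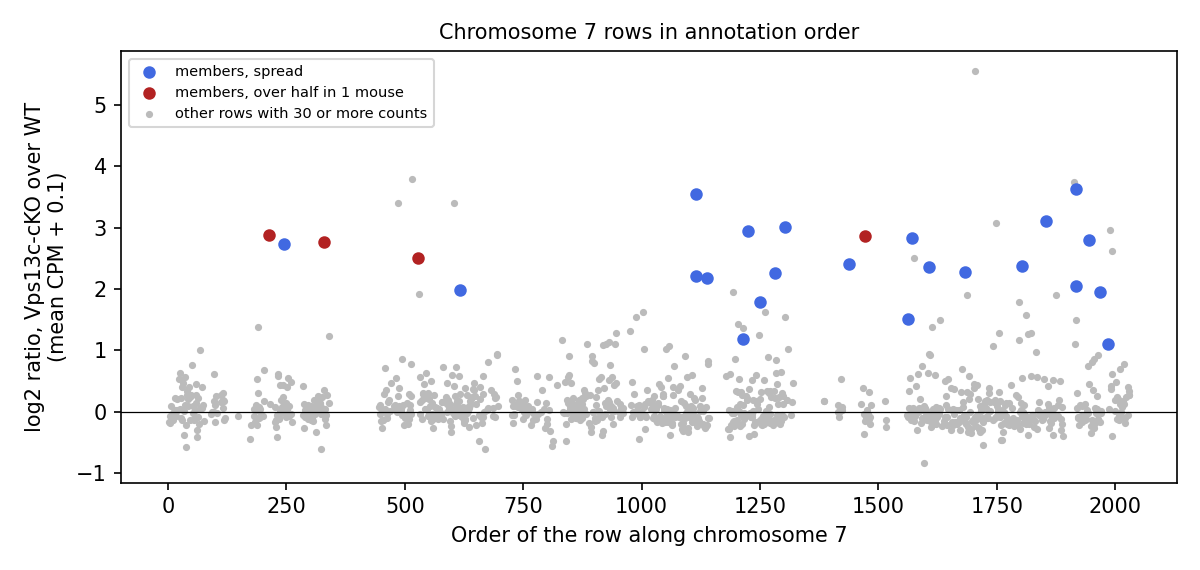
Log2 ratio of mean CPM plus 0.1, Vps13c-cKO over WT, of 1112 genes of chromosome 7 with 30 or more summed counts against their order on the chromosome; blue points are spread members, red points single-mouse members and grey points other genes. The ratios of the members follow from the rule, and 20 of the 22 blue points lie in the second part of the order.

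The genes next to the members were not used by the rule and could be tested, but they are not independent of the members. Some belong to the same family as the member beside them, such as Itih4 next to Itih3 and Ces1d next to Ces1c. Exons of Tubb4b and Slc22a3 overlap those of the members Fam166a and Plg. The nearest gene on either side gave 199 neighbours, of which 94 passed the filter and 23 were called by edgeR (24.5%, against 10.7% of all tested genes), 14 higher and 9 lower, with a median log2 fold change of 0.043. Next to single-mouse members, 9 of 54 tested neighbours were called (16.7%). Next to spread members, 15 of 41 were called (36.6%), 10 higher and 5 lower, with a median of 0.107. Lrat, called higher, is next to both Fgg and Rbm46 and is counted in both classes. On chromosome 7 the called neighbours were divided, with 4 higher and 4 lower among 26 tested, whereas next to the other spread members 6 were higher and 1 lower among 15. The share around chromosome 7 members, 30.8%, stands beside 18.5% for that chromosome. The split by class was made after the data were seen and carries no test.

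Among single neighbours, Scgb1c1, a secretoglobin gene between Urah and Odf3, had 46, 49, 57, 43, 28 and 63 counts in Vps13c-cKO mice 1 to 6, against 9, 19, 15, 14, 23 and 21 counts in WT mice 1 to 6. All knockout counts lay above all WT counts, and the log2 fold change was 1.57 ± 0.21 (SE, adjusted p = 3.05e-05 by edgeR's quasi-likelihood test). Thrsp, a regulator of lipid synthesis next to Kctd14, was higher by 1.37 ± 0.10 on the log2 scale (SE, edgeR, adjusted p = 1.44e-08), with 530 to 799 counts in Vps13c-cKO mice, against 174 to 321 in WT mice. Phlda3, a p53 target next to Tnni1, was higher by 1.44 ± 0.11 (SE, edgeR, adjusted p = 1.53e-08), and Cmtm5, next to Il25, by 1.38 ± 0.25 (SE, edgeR, adjusted p = 0.000651). Fsd2, a muscle protein gene next to BC048679, was lower, with a log2 fold change of -0.24 ± 0.04 (SE, edgeR, adjusted p = 0.00113), and the other 4 lower neighbours of spread members had log2 fold changes between -0.24 and -0.17. The 4 lower neighbours of single-mouse members had log2 fold changes of -0.57 (Slc22a3, next to Plg), -0.49 (Ces1d, next to Ces1c), -0.37 (Apbb1, next to Hpx) and -0.17 (Slc4a4, next to Gc). Itih4, next to the liver gene Itih3 and itself a plasma protein gene, was called higher (log2 fold change 1.6 ± 0.47, SE, edgeR, adjusted p = 0.0306), with 77, 13, 17, 15, 9 and 21 counts in Vps13c-cKO mice 1 to 6, against 9, 9, 5, 9, 12 and 9 counts in WT mice 1 to 6. Its highest value again came from mouse 1.

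Other genes of the same pathways came from the lists that held a member. There were 8 such lists, with 32 members on them, and 78 of their genes passed the filter. Of these 78, 24 were called higher and 1 lower by edgeR. The list of developing muscle genes, which holds Tnni1 and Mybpc1, had 2 of 6 higher, with a median log2 fold change of 0.26. The neuronal list had 2 of 15 higher and 1 lower, with a median of 0.00, as over all tested genes.

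At the limits of the rule, 8 members had a Vps13c-cKO sum of exactly 30, among them Folr1, Apoc3 and C8a, and 7 members had a WT sum of exactly 10, among them Cps1, Apoa2 and Hpx. Just outside, 7 genes had a Vps13c-cKO sum of 29, among them Mug2 with all 29 counts in 1 mouse, and Gabrg3 and Olfr544, both on chromosome 7, with 24.14% of theirs in the highest mouse. Also outside were 3 genes with a WT sum of 11, among them Cfhr2 (53 counts in Vps13c-cKO mice, 86.79% in 1 mouse) and Tmem63c (42 counts, 26.19%). The same 2 kinds of gene were thus found on both sides of each limit.

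The tested genes most like the top members in level over the 6 Vps13c-cKO mice, by Pearson's r of log2(CPM + 0.1), depended on mouse 1. Cdo1 and Pzp were most like Mup7 (r = 0.994 and 0.992). Cdo1, an enzyme of cysteine breakdown, had 81, 8, 10, 8, 10 and 10 counts in Vps13c-cKO mice 1 to 6, against 10 to 17 in WT mice, and Pzp, a plasma protease inhibitor, had 181, 10, 11, 12, 9 and 14, against 1 to 11 in WT mice. Both were high in mouse 1 alone. Alb was most like Dazap2 and Npepl1 (r = 0.985 and 0.98) and Mup3 most like Mrpl10 and Dazap2 (r = 1.0 and 0.995), genes whose counts barely varied, with 2325 to 2672 counts of Dazap2 in Vps13c-cKO mice and 2419 to 2899 in WT mice. With 1 mouse far from 5 others, r has little to say, and these values are a description only.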

How the data were processed

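Poly-A RNA of heart ventricles from 6 Vps13c-cKO and 6 WT mice was sequenced, with PCR and no molecular identifiers per the labels' protocols. Per the file headers, the authors deposited raw read counts, 1 column per mouse. Their tools, per the submitters' processing notes, include HTSeq 0.9.1, HISAT2 2.1.0 and fastp 0.22.0, with the build GRCm39. Annotation release and strand setting: not given in the sources used here. No strand marking is mentioned, and if strand was not used in counting, reads of genes overlapping on opposite strands cannot be told apart. This touches 4 of 74 single-mouse and 5 of 37 spread members, counting 1 same-strand overlap in each set. GENCODE M21 (GRCm38) supplied names, chromosomes and gene order and matched 21851 of 21959 IDs, and 0 columns went unused. Separate mice are given by the labels.

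The members were counted on raw sums. Genes were tested in edgeR 4.0.16 (R 4.3.3; filterByExpr, TMM, quasi-likelihood, two-sided, Benjamini-Hochberg, called at an adjusted p under 0.05), after a check on simulated counts. CPM values use TMM-scaled totals. Textbook sites were assigned by hand to 101 of 111 members from general knowledge after the members were known. The members, the 26 gene lists and the tests were chosen with earlier results of these data known. The naming rule takes the 25 members with the highest sum, members on a list, the mirror genes, genes at the limits, Vps13c and the genes most alike; any other gene was picked with its values in view. Alternatives were other limits, scalings, filters, DESeq2 1.42.0, a replicate block and leaving out each mouse. The planned relation of the summed member level with other measures within Vps13c-cKO mice was not computed, since mouse 1 stood at 893.9 CPM and the other 5 at 21.58 to 32.98 CPM. Values of some genes are not reported here.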

Additional observations from a re-analysis of the deposited data

Results flagged for a closer look

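Each value below is the gap between the highest mouse of a group and the nearest other mouse as a share of the group's whole range, where 1.0 means that the other 5 mice had equal values. A share above Dixon's 95% critical value for 6 mice puts a result here. Chance alone gives such a gap in some groups, at a rate not worked out here for read counts. In all, 40 values passed, of which 36 are values of Vps13c-cKO mouse 1 and 4 are values of WT mouse 4. The number of values screened is not given here. The members were chosen on the same counts, so these shares describe them and test nothing.

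For sums over genes, the share was 0.987 for the summed level of the members, 0.995 for the liver list and 0.714 for the number of members with at least 1 count (110 in Vps13c-cKO mouse 1 and 54 to 70 in Vps13c-cKO mice 2 to 6).

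For single plasma proteins of the liver, it was 0.996 for Alb and for Gc, 0.995 for Serpina3k, 0.989 for Serpina1e and for Mug1, 0.967 for Serpina1b, 0.99 for Serpina1d, 1.0 for Serpina1a and 0.971 for Hpx. The urinary proteins gave 0.997 for Mup3, 0.998 for Mup7, 0.995 for Mup14 and 0.993 for Mup20. The clotting genes Fga, Fgb, Fgg and Kng1 each gave 1.0. The apolipoproteins gave 0.997 for Apoa1, 0.994 for Apob, 0.981 for Apoa2, 0.982 for Apoh and 1.0 for Apoc3.

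Among enzymes and transporters, the share was 0.998 for Cyp3a11, 0.977 for Cyp2a5, 0.968 for Cyp1a2 and 1.0 for Cyp2c29. It was 0.971 for Cps1, 0.992 for Tat, 0.96 for Mat1a, 0.988 for Arg1, 1.0 for Hpd, 1.0 for Fabp1 and 0.957 for Slco1b2.

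In WT mouse 4 the atrial genes gave 1.0 for Sln, 0.995 for Myl7, 0.974 for Myl4 and 0.94 for Mybphl. The part of tissue from liver or atrium in these values was not tested.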

How the results depend on the processing

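The numbers depend on the limits of the rule. With a WT limit of 5 the rule gave 83 members, 1 mirror gene, 17 members on chromosome 7 and 19 with reads in all 6 Vps13c-cKO mice, against 111, 3, 26 and 39 with the limits used. With a WT limit of 20 it gave 177, 33, 46 and 98, with a Vps13c-cKO limit of 20 it gave 203, 20, 51 and 90, and with a limit of 60 it gave 48, 1, 7 and 11. Scaling the counts gave 118 members by TMM and 117 by DESeq2 size factors. Leaving out each mouse in turn gave 29 to 122 members, 0 to 8 mirror genes, 16 to 30 members on chromosome 7 and 27 to 47 with reads in all remaining or all 6 Vps13c-cKO mice. The 29 are from leaving out Vps13c-cKO mouse 1, and every other mouse left out gave 95 to 122. Fewer counts against unchanged limits move these numbers by construction.

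Of the members, 3 were called in edgeR with the filter. Without it 77 were called (44 single-mouse and 33 spread) and with DESeq2 33 (1 single-mouse and 32 spread), while 71 members had no adjusted p in DESeq2. Over all 17479 genes these settings called 1410 and 1398, and since the rule used this contrast nothing is read from the members' calls. Called genes on the lists numbered 25 with the filter and 61 without. Without the filter all 111 members were tested, 32 of them on the lists, so nothing is read from this rise. Leaving out each mouse gave 3 called members in every case, 1065 to 1397 called genes, 21 to 26 called neighbours and 22 to 26 called list genes.

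Replicate numbers do not pair the mice: deviations of same-numbered mice correlated at -0.04 to 0.062. With the replicate number as a block, 1312 genes and 3 members were called, against 1331 and 3 without it. The relation within Vps13c-cKO mice and its 2 alternatives were not run. Depth limits the values outside Vps13c-cKO mouse 1, where most members have few counts per mouse.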
